A study of Homo sapiens with 5 samples.

Results

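The subject here is a set of 2083 MYF5 binding peaks whose summits lay just beside acetylated chromatin, out of 11136 MYF5 peaks mapped in RH18. They were chosen by position. Each summit lay inside no H3K27ac region of RH18 or of RD, a second line, but within 500 bp of the edge of a region in at least 1 of the lines. These peaks made up 18.7% (exact Clopper-Pearson 95% interval 18.0 to 19.4%) of all MYF5 peaks, and 48.7% (47.2 to 50.2%) of the 4275 whose summit lay in no region.

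RD and RH18 are established cell lines of fusion-negative rhabdomyosarcoma, the form of this muscle-like tumour that lacks a PAX fusion gene. Both were grown without any treatment named in the labels, and were fixed in 1% formaldehyde for 12 minutes before chromatin immunoprecipitation and sequencing. H3K27ac (histone H3 acetylated at lysine 27) was mapped in both lines and MYF5 in RH18. Each of these 3 groups was 1 library, so no value below has a replicate error, no test between groups was possible, and the intervals given reflect counting error alone. There were 43159 H3K27ac regions in RD and 46408 in RH18. RD has no MYF5 list here, and the input samples had no list and were not analysed here.

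MYF5 is a basic helix-loop-helix transcription factor of muscle progenitors that binds the short E-box motif together with an E protein partner. H3K27ac is carried by nucleosomes at active enhancers and promoters. Where a factor occupies DNA the nucleosome is often displaced, so that acetylated nucleosomes flank a short stretch that itself carries little histone signal. The peaks described here were chosen for a position beside or between listed acetylated regions.

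Within this set, edges of RH18 were more common than edges of RD, an order that depends on the rule. The rule dropped summits inside regions of either line. With each list taken alone, 2560 MYF5 summits (23.0% of all) lay just beside RD regions and 1879 (16.9%) just beside RH18 regions. An RH18 edge lay within 500 bp of 1534 peaks (73.6%, 71.7 to 75.5%) and an RD edge within 500 bp of 1302 (62.5%, 60.4 to 64.6%). Edges of both lines lay beside 753 peaks (36.1%), edges of RH18 alone beside 781 (37.5%), and edges of RD alone beside 549 (26.4%). For the 781 peaks beside RH18 alone, the nearest RD edge was at a median of 29905 bp, with quartiles of 7802 and 89946 bp. For the 549 beside RD alone, the nearest RH18 edge was at a median of 13756 bp, with quartiles of 2878 and 44926 bp. Most of these peaks therefore had no listed region of the other line in the near surroundings, rather than one that narrowly missed the limit. Where a region is missing, signal too weak for that list may still be present, and the RD list went down to lower −log10 p-values (5.00) than the RH18 list (7.09).

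Acetylation within 500 bp on both sides of the summit was found at 787 of the 2083 peaks (37.8%, 35.7 to 39.9%) in at least 1 line. Gaps of this kind numbered 452 in RH18 and 503 in RD, and 168 peaks (8.07%) lay in a gap of both lines. Of the peaks beside RH18 regions 29.5% (27.2 to 31.8%) were flanked on both sides there, and of those beside RD regions 38.6% (36.0 to 41.3%) were flanked on both sides in RD. The lines mostly shared the acetylated side. Among 335 peaks with an edge on 1 side in each line, it was the same side at 299 (89.3%, 85.4 to 92.4%) and the opposite side at 36. The remaining 1296 peaks had no such gap in any single line. They were not all at an outer flank of acetylation, because the other side could hold a region beyond the limit. A peak on chromosome 1 (39636516 to 39636743), for example, had RD edges at 491 bp on 1 side and 679 bp on the other.

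**Figure D1:**
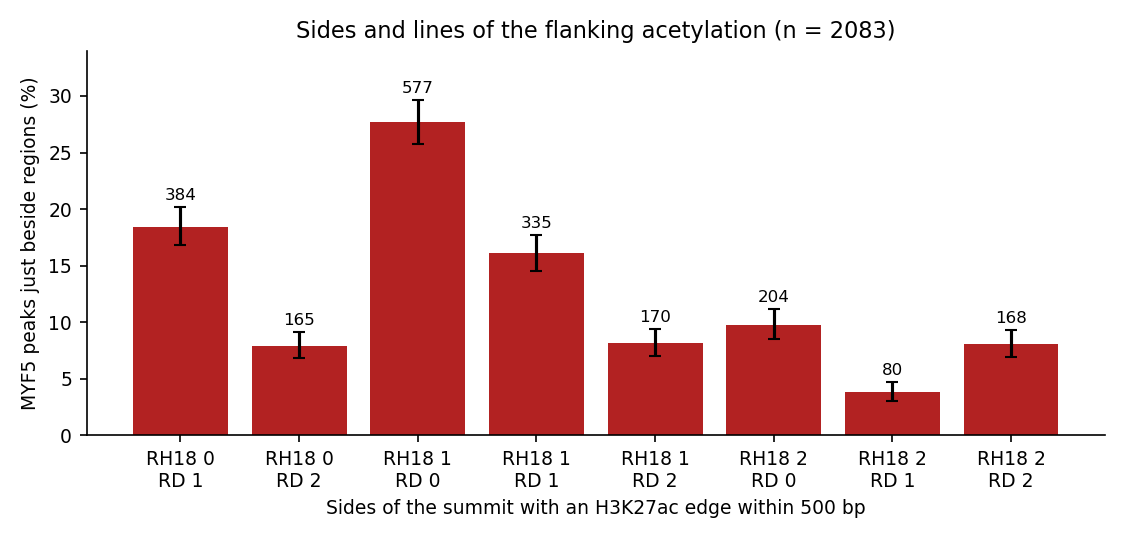
Share of the 2083 MYF5 peaks by the number of sides (0, 1 or 2) with an H3K27ac edge within 500 bp in RH18 and in RD, with the count above each bar and exact Clopper-Pearson 95% intervals as error bars. The largest class, 577 peaks, had 1 RH18 edge and no RD edge, and 168 peaks had edges on both sides in both lines.

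Summits hugged the edges closely. The distance to the nearest edge of either line had a median of 108 bp, with quartiles of 51 and 214 bp. Counts fell from 984 peaks at 1 to 100 bp to 527 at 101 to 200 bp, 285 at 201 to 300 bp, 183 at 301 to 400 bp and 104 at 401 to 500 bp. Less sequence lies at greater distances, because gaps close, so the counts were set against the bases available. Per megabase of sequence, MYF5 summits then numbered 82.8 at 1 to 100 bp, 53.9 at 101 to 200 bp, 32.6 at 201 to 300 bp, 22.4 at 301 to 400 bp and 13.3 at 401 to 500 bp. Inside regions of either line there were 167 per megabase. At 901 to 1000 bp, outside the limit, 4.19 per megabase remained. The density fell at every step with no break at 500 bp, so the limit that defines these peaks does not fall at a natural boundary of the data. Since the distance chose the peaks, these values are a description.

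**Figure D2:**
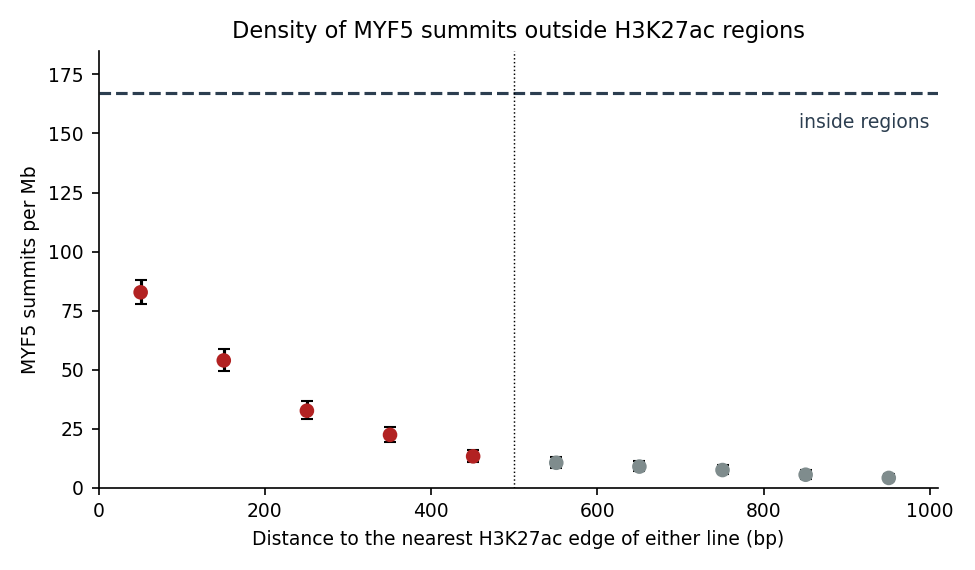
MYF5 summits per megabase against the distance to the nearest H3K27ac edge of either line, in bins of 100 bp with exact Poisson 95% intervals. Red points are the peaks described here and grey points lie beyond the 500 bp limit (dotted line). The density fell from 82.8 to 4.19 per megabase, below the 167 inside regions (dashed line).

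The peaks at the limit differed little from those beyond it. The 39 peaks at 451 to 500 bp had a median fold enrichment of 12.8 and a median of 46.0 tags, and the 37 at 501 to 550 bp had 13.3 and 46.0. Fold enrichment is the authors' ratio of signal to local background at the summit, and tags are the sequenced fragments at the summit, worked out from the fold and the p-value together. The last peaks within the limit included 1 on chromosome 6 (27758979 to 27759277, fold 41.4) at 500 bp and 1 on chromosome 12 (48136091 to 48136679, fold 4.04) at 499 bp. The first beyond it was a high peak on chromosome 2 (157257094 to 157257854, fold 60.96, 190 tags), at 501 bp from an RH18 edge. It was followed by 2 peaks of chromosome 8 at 502 and 505 bp, with folds of 12.8 and 11.5, a little above the median of 11.2 over all MYF5 peaks.

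Widths of the gaps around these summits were measured in each line. The 452 RH18 gaps had a median width of 317.5 bp, with quartiles of 206 and 462 bp, and the 503 RD gaps a median of 304 bp, with quartiles of 208.5 and 435 bp. The narrowest were 82 and 73 bp and the widest 875 and 915 bp. The place of the MYF5 summit within the gap was set beside an even spread over the same gaps. That spread kept positions inside regions of the other line, which the rule shut out for these peaks. The values are therefore not like for like, and no preference for edge or centre can be read from them. The nearer edge lay at a median of 27.3% of the gap in RH18 (quartiles 15.4 and 39.6%), where 50% is the middle, and positions spread evenly over the same gaps within the limit would give 28.1% (15.1 and 39.6%). In RD it lay at 32.0% (19.9 and 41.5%), where an even spread would give 27.2% (14.3 and 38.9%). In the 168 gaps found in both lines, the stretch left free of listed regions in both had a median of 193.5 bp, with quartiles of 141 and 314 bp. Gap widths are bounded by the limit of 500 bp on each side and by how the caller split regions.

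**Figure D3:**
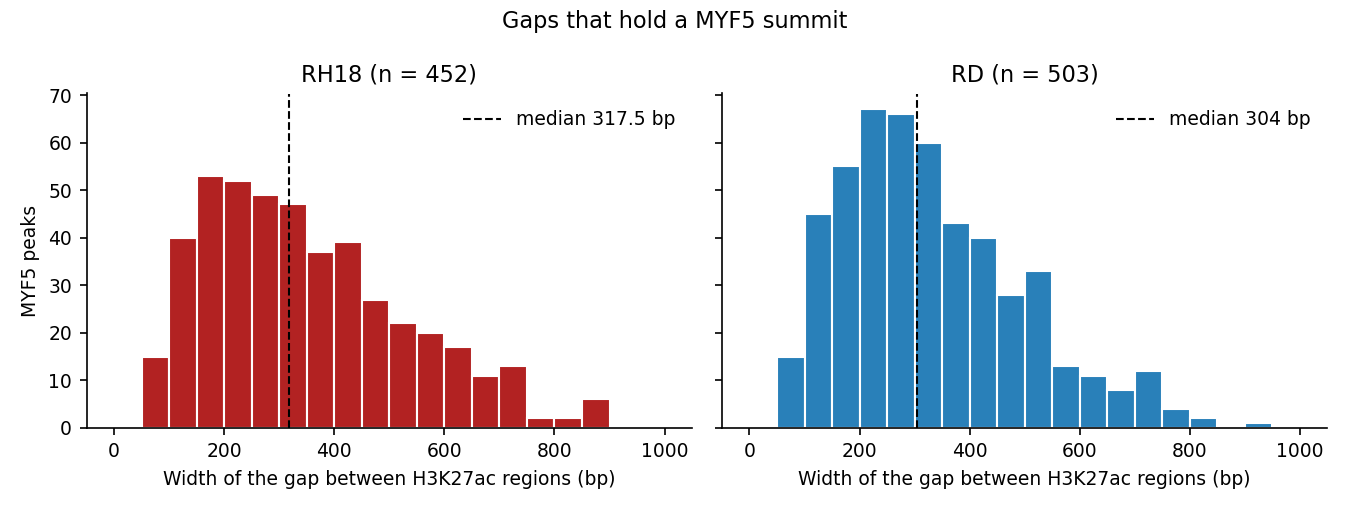
Number of MYF5 peaks by the width of the gap between the flanking H3K27ac regions, in bins of 50 bp, for 452 gaps of RH18 and 503 gaps of RD. The dashed lines mark medians of 317.5 and 304 bp, and most gaps lay between 100 and 500 bp.

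Where both lines flanked a summit, the distances from the summit to the nearest edge of each line were compared. The nearest edges could lie on different sides, so these values do not measure the distance between the edges. At the 753 peaks beside both lines, the distances to the nearest edges differed by a median of 64.0 bp, and by 50 bp or less at 303 peaks (40.2%). The RH18 edge was the nearer at 430 and the RD edge at 317. Across these peaks, which are not independent replicates and were selected on both distances, Spearman's rho between the distances was 0.35.

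Coverage by listed regions was largest 300 to 400 bp from the MYF5 summit on each side. The rule allowed no region at the summit and required an edge within 500 bp, so a flanking maximum is partly built in. An RH18 region covered 38.4% of the positions 350 bp upstream of the summit by coordinate and 36.8% of those 400 bp downstream. RD regions covered 31.9% at 350 bp upstream and 33.5% at 300 bp downstream. At 100 bp the RH18 shares were 16.2 and 16.3%, and at 2000 bp 8.50 and 8.35%. From MYF5 summit to closest H3K27ac summit, the median distance was 439 bp in RH18 and 436 bp in RD for peaks just beside regions. For peaks inside regions of both lines it was 159 and 110 bp, and for peaks far from both, 15491 and 38141 bp. The order of these distances also follows in part from how the classes were defined. A MYF5 peak has width of its own, and 1219 of the 2083 (58.5%) overlapped a listed region with part of the peak although the summit lay outside.

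**Figure D4:**
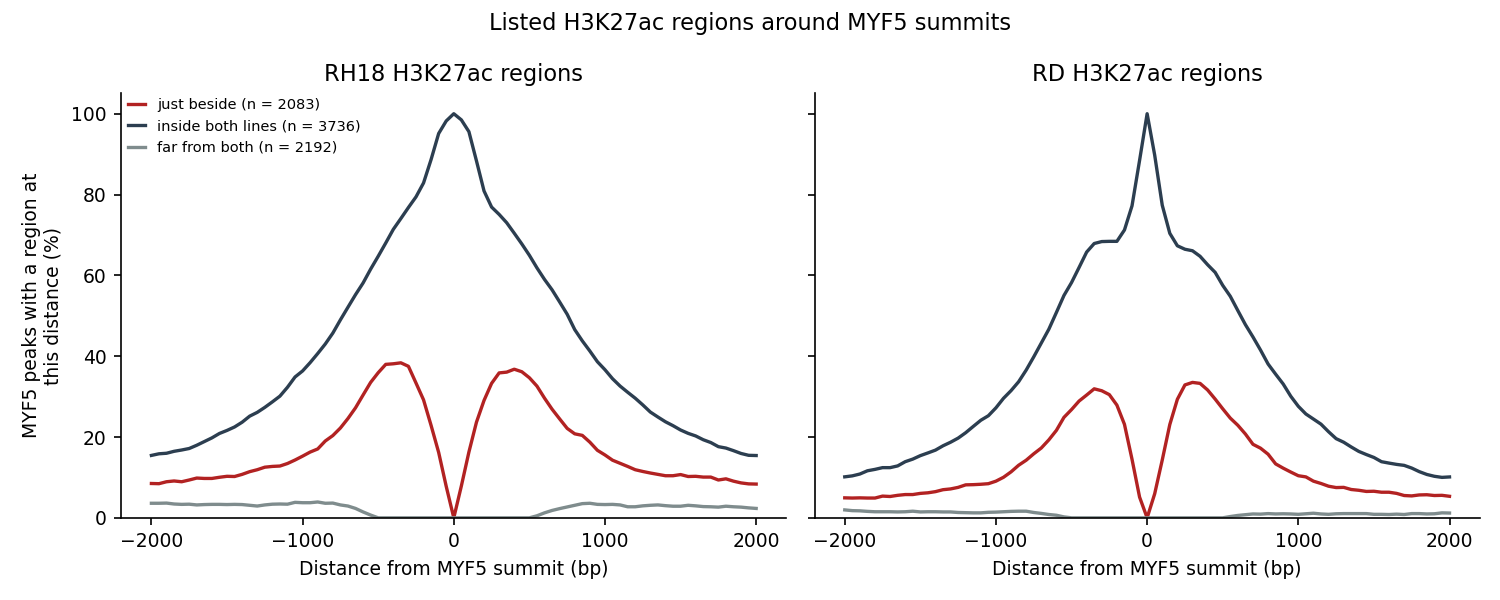
Share of MYF5 peaks with a listed H3K27ac region at each distance from the MYF5 summit, every 50 bp, for RH18 regions (left) and RD regions (right). Peaks just beside regions have 0% at the summit by definition and flanking maxima of 38.4% in RH18 and 33.5% in RD. Peaks inside both lines fall from 100%, and peaks far from both stay near 0.

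MYF5 peaks just beside acetylation were often high. Their fold ran from 3.03 to 70.6 with a median of 12.8, against 11.2 over all MYF5 peaks, and their tags from 20.0 to 286 with a median of 48.0, against 42.0. The position rule did not use MYF5 height. Of the 2083 peaks, 369 (17.7%, 16.1 to 19.4%) were among the top decile of the MYF5 list by fold, where the background over all peaks was 10.0% by construction. By tags, 364 (17.5%, 15.9 to 19.2%) were in the top decile, again against 10.0%. The top decile began at a fold of 21.3 and at 82 tags. In the bottom decile by fold were 94 of these peaks (4.51%), against 10.1% of all MYF5 peaks. Peaks inside RD regions alone had a lower share still, at 3.09%.

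Other places had smaller shares of top peaks, or wide intervals. The share in the top decile by fold was 5.49% (4.78 to 6.27%) for peaks inside regions of both lines, 8.86% (7.76 to 10.1%) inside RH18 regions alone, 15.6% (13.0 to 18.5%) inside RD regions alone and 9.81% (8.59 to 11.1%) far from both. By tags these shares were 6.16, 10.6, 11.5 and 8.53%. The interval of the peaks just beside regions overlapped that of peaks inside RD alone by fold (13.0 to 18.5%) but not by tags (9.28 to 14.1%). Seen from the height, peaks just beside regions made up 7.90% of the lowest decile by fold and 33.1% (30.4 to 36.0%) of the highest, where they were the largest of the 5 classes. By tags the shares were 11.8 and 32.5%. Peaks of 1 library are not replicates, so no test was made of these differences.

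Local background moved with place as well. Its median over the lowest of the MYF5 list was 1.16 for peaks just beside regions. It was 1.54 inside both lines, 1.46 inside RH18 alone, 1.005 inside RD alone and 1.0 far from both. Among the peaks just beside regions it was 1.31 beside both lines, 1.19 beside RH18 alone and 1.0 beside RD alone. A high background lowers the fold but adds to the tags. Among the 8493 MYF5 peaks with a background under 2 times the lowest, the top decile by fold was taken anew. It held 17.5% of those just beside regions, 5.78% inside both lines, 9.09% inside RH18 alone, 14.4% inside RD alone and 8.64% far from both. The places with the highest and the lowest share were the same as over all peaks.

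Height differed with the line that was acetylated beside the peak. Peaks beside both lines had a median fold of 13.98 and 53.0 tags, and peaks beside RD alone 14.1 and 49.0. Peaks beside RH18 alone, the line in which MYF5 was mapped, had 11.4 and 43.0, close to the 11.2 and 42.0 of all MYF5 peaks. The top decile by fold held 23.8% (20.8 to 26.98%) of the peaks beside both lines, 21.9% (18.5 to 25.6%) of those beside RD alone and 8.96% (7.05 to 11.2%) of those beside RH18 alone. By tags the shares were 24.97, 18.6 and 9.48%. The last interval by fold held the background of 10.0%, while the intervals of the other two lay wholly above it. At a background under 2 times the lowest, peaks of the top decile of all peaks made up 26.4, 24.5 and 9.72% of these sets, in the same order, against 12.1% of all MYF5 peaks at that background. For 1 to 100 bp from the edge the shares were 24.2, 18.2 and 7.61%, and for 101 to 500 bp 23.0, 24.3 and 9.76%, so that peaks beside RH18 alone were lowest at either range.

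**Figure D5:**
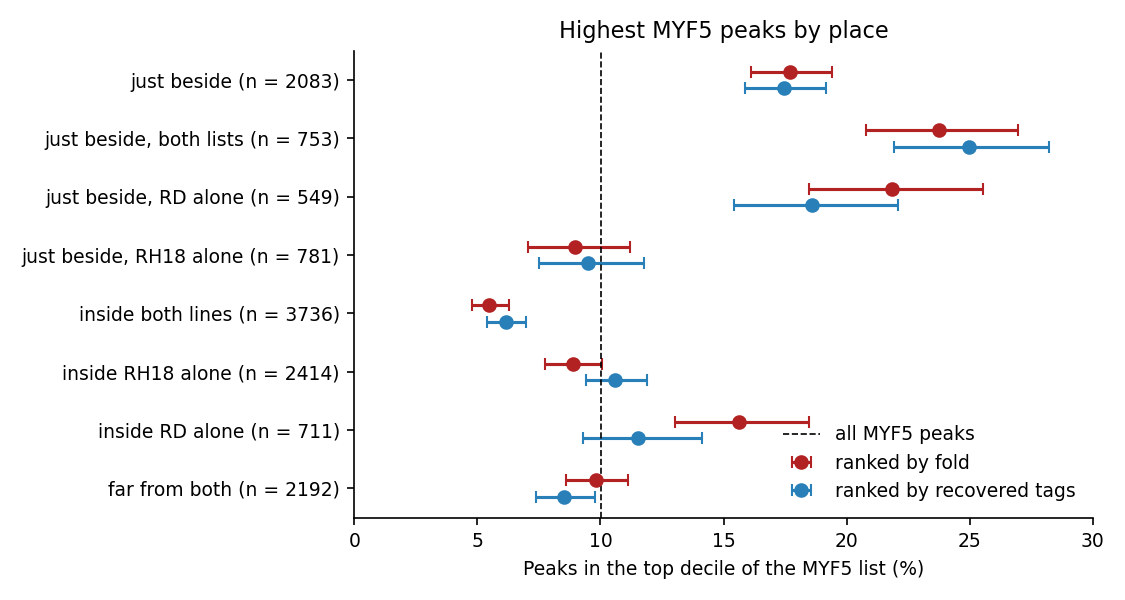
Share of MYF5 peaks in the top decile of the MYF5 list by fold (red) and by recovered tags (blue), with exact Clopper-Pearson 95% intervals, for the peaks just beside regions, their subsets by line, and the other places. The dashed line is the share of all MYF5 peaks, 10.0%. Peaks just beside both lines reach 23.8 and 24.97%, and those beside RH18 alone 8.96 and 9.48%.

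Distance from the edge and the number of flanked sides went with smaller differences. By distance, the top decile by fold held 18.0% (15.6 to 20.5%) at 1 to 100 bp, 20.9% (17.5 to 24.6%) at 101 to 200 bp, 14.04% (10.2 to 18.6%) at 201 to 300 bp, 14.2% (9.50 to 20.1%) at 301 to 400 bp and 15.4% (9.06 to 23.8%) at 401 to 500 bp. These intervals overlap. Peaks in a gap of at least 1 line had 19.6% (16.9 to 22.5%), and those flanked on 1 side only 16.6% (14.6 to 18.7%). In gaps of both lines, 45 of 168 peaks (26.8%, 20.3 to 34.2%) were in the top decile. Within each set by line, gaps and peaks flanked on 1 side had close shares. These were 23.9 and 23.6% beside both lines, 21.8 and 21.9% beside RD alone, and 8.82 and 9.01% beside RH18 alone. The difference between 19.6 and 16.6% was thus not seen within any of the 3 sets.

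The 12 highest of these peaks had folds of 58.3 to 70.6 and 179 to 216 tags. The highest, which also led the whole MYF5 list, was on chromosome 10 (69524089 to 69524533, fold 70.6, 216 tags). An RH18 region of fold 42.8 ended 30 bp from its summit and an RD region of fold 14.1 ended 97 bp away on the same side, while on the other side the nearest regions were 84904 bp away in RH18 and 84979 bp away in RD. The next, on chromosome 6 (126101253 to 126101611, fold 69.6, 213 tags), also had both edges on 1 side, at 370 bp in RH18 and 418 bp in RD. A peak on chromosome 20 (59709204 to 59710091, fold 68.96, 211 tags) had its summit in an RD gap of 440 bp. The closest RH18 edge to this summit, at 134 bp, belonged to a region whose own fold was 80.4. Of the 12, 9 had an edge of each line within 500 bp, although they differed in the side and in the number of edges. Over all 2083 peaks, 753 (36.1%) had an edge of each line.

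Some high peaks had acetylation of RD alone. A peak on chromosome 17 (39228090 to 39228659, fold 64.4, 197 tags) had its summit in an RD gap of 235 bp between narrow regions of 241 and 221 bp. The nearest RH18 region was 11921 bp away. On chromosome 1, a peak at 161509907 to 161510279 (fold 58.6) had its RD edge at 88 bp and its closest RH18 region at 9209 bp. The peak on chromosome 10 at 11054383 to 11054831 (fold 55.98) had its summit 45 bp from an RD region of fold 24.4 and 2232 bp from an RH18 region. On chromosome 8 (49492936 to 49493481, fold 55.0), the RD edge was at 210 bp and the RH18 edge at 502 bp, so its class turned on 2 bp. On chromosome 7 (69599012 to 69599528, fold 48.7) the RD edge was at 14 bp.

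The 5 highest peaks beside RH18 alone had folds of 41.9 to 59.9, against 48.7 to 64.4 for the 5 highest beside RD alone. The first lay on chromosome 17 (8023440 to 8023853, fold 59.9, 183 tags). Its summit was 211 bp from a small RH18 region of fold 12.3, with the nearest RD region at 18721 bp. The others were on chromosome 16 (22206902 to 22207237, fold 49.8), chromosome 5 (180644904 to 180645438, fold 44.7), chromosome 6 (26521358 to 26521643, fold 44.6) and chromosome 17 (80452262 to 80452786, fold 41.9). Each of the 5 was flanked on 1 side only. The chromosome 6 peak had an RD edge at 542 bp, a short way beyond the limit.

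Among the 168 peaks in gaps of both lines, the 10 with most tags had 159 to 222. The first, on chromosome 11 (62608356 to 62609395, 222 tags), had a fold of 21.001, just below the top decile. Its local background was 5.84 times the lowest. The gaps around this summit were 418 bp in RH18 and 498 bp in RD. A peak on chromosome 1 (145396718 to 145397102, 213 tags, fold 40.2) had its summit in gaps of 90 and 192 bp, with RH18 flanks of 192 and 82 tags. A peak on chromosome 17 (8125348 to 8125769, 201 tags, fold 48.97) had its summit in gaps of 239 and 219 bp. Its flanks were closely matched in RH18, with 267 and 261 tags, but not in RD, with 190 and 77. On chromosome 14, 2 of the 10 were close neighbours, at 21150748 to 21151791 (fold 35.6) and at 21152007 to 21152481 (fold 55.8). Their summits lay on either side of the same RH18 region of 416 bp. On chromosome 19 (56637148 to 56637711, 165 tags) the summit lay 2 bp from an RH18 edge and in the middle of an RD gap of 94 bp.

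Several of these highest peaks lay in stretches known for clusters of tRNA genes, which are short genes read by RNA polymerase III, or of histone genes. No annotation of hg19 was used here. Therefore 7 megabases were taken from general knowledge of such clusters, after the values had been seen, on chromosomes 1, 5, 6, 14 and 17. They held 41 of the 2083 peaks (1.97%), near the 1.72% of all MYF5 peaks, and 4 of the 12 highest and 13 of the 50 highest. Of the 41, 36 (87.8%, 73.8 to 95.9%) were in the top decile by fold, with a median fold of 38.6 and 144 tags. Of all 192 MYF5 peaks in these megabases, 47.9% (40.7 to 55.2%) were in the top decile. Without these megabases, and with the top decile taken anew, the share was 17.1% for peaks just beside regions by fold and by tags alike. By fold, peaks inside RD alone were close to this, at 16.5%. The fold shares were 5.68% inside both lines, 9.14% inside RH18 alone and 9.45% far from both. By tags they were 12.6% inside RD alone, 6.37% inside both lines, 11.4% inside RH18 alone and 8.19% far from both. Outside them, peaks of the decile of the whole list made up 21.5% of those beside both lines, 20.9% beside RD alone and 8.18% beside RH18 alone, against 9.34% of all MYF5 peaks there. Isolated genes of these kinds elsewhere were not located. Without a mock immunoprecipitation among the lists used, specific and unspecific signal of the MYF5 antibody cannot be told apart at these peaks.

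The RH18 regions that flanked these summits were near the whole RH18 list in height, below those that held a MYF5 summit. Edges within 500 bp belonged to 1963 RH18 regions and 1787 RD regions. The RH18 flanks had a median fold of 14.7, 60.0 tags and a width of 433 bp, against 13.98, 57.0 tags and 474 bp over all 46408 RH18 regions. RH18 regions that held a MYF5 summit had a median fold of 36.5, 151 tags and a width of 1091 bp. The share of RH18 flanks in the top decile of their list by fold was 9.53% (8.26 to 10.9%), against a background of 10.0% over all regions and 39.4% among regions that held a summit. A wide region has more room for a summit inside it, so the width of regions with a summit is partly fixed by the comparison.

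RD flanks had a median fold of 9.10, 77.0 tags and a width of 361 bp, against 8.0, 85.0 tags and 358 bp over all 43159 RD regions. In fold 14.8% (13.2 to 16.6%) were in the top decile, above the background of 10.0%, but in tags 6.83% were, below it. The RD flanks thus stood above their list by one measure and below it by the other. RD regions that held a MYF5 summit had medians of 12.2 in fold, 151 tags and 667 bp. Another MYF5 summit lay inside 107 of the RH18 flanks (5.45%, background 12.0%) and inside 46 of the RD flanks (2.57%, background 9.71%).

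Sharing of the flanks between the lines was near the background in RH18 and below it in RD. Of the RH18 flanks, 906 (46.2%, 43.9 to 48.4%) overlapped an RD region, where 45.1% of all RH18 regions did. Of the RD flanks, 898 (50.3%, 47.9 to 52.6%) overlapped an RH18 region, where 60.0% of all RD regions did. Regions that held a MYF5 summit were shared in 80.2% of cases in RH18 and 89.6% in RD. The rule kept out summits inside any region of either line, which bears on which flanks can be shared.

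In gaps, the regions on either side differed in height to varying degrees. The higher flank had a median of 1.49 times the tags of the lower in the 452 RH18 gaps and 1.37 times in the 503 RD gaps. The ratio was at most 1.5 at 232 RH18 gaps (51.3%) and 308 RD gaps (61.2%), and 3 or more at 51 (11.3%) and 21 (4.17%). The lower flank had a median of 48.0 tags in RH18 and 68.0 in RD, and the higher 88.5 and 107.

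In the wider neighbourhood, peaks just beside acetylation had less of it than peaks inside regions of the same line, and more than peaks far away. This order is partly fixed by how the classes were defined. The window includes the 500 bp around the summit that the rule used, so the values are a description. Within 5 kb either side of the summit, RH18 regions covered a median of 684 bp, against 1782 bp for peaks inside both lines, 1970 bp inside RH18 alone, 587 bp inside RD alone and 0 bp far from both. RD regions covered a median of 404 bp, against 1381 bp inside both lines, 1467 bp inside RD alone, 392 bp inside RH18 alone and 0 bp far from both. Another MYF5 summit lay within 5000 bp of 468 of these peaks (22.5%, 20.7 to 24.3%), against a background of 30.7% of all MYF5 peaks, 36.9% inside both lines and 22.9% far from both. Within 20000 bp the share was 44.1% (41.9 to 46.2%), against a background of 48.9% and 38.4% (36.3 to 40.4%) far from both, and within 1000 bp it was 7.87%, against a background of 15.0%, and 9.72% far from both. The median distance to the next MYF5 summit was 28394 bp, against 21444 bp over all and 41780 bp far from both. Peaks just beside regions thus had a MYF5 neighbour less often than all MYF5 peaks at each of these 3 ranges. Against peaks far away, they had one more often within 20000 bp, and the intervals overlapped at the shorter ranges.

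These peaks lay on all 23 chromosomes of the MYF5 list. Their share of a chromosome's MYF5 peaks was lowest on chromosome 19, at 64 of 552 (11.6%, 9.04 to 14.6%), and highest on chromosome 4, at 33 of 128 (25.8%, 18.5 to 34.3%). The interval of chromosome 19 lay wholly below the 18.7% over the list, and that of chromosome 4 held this value near its lower end. The intervals of chromosome 9 (25.2%, 19.7 to 31.4%), chromosome 13 (24.1%, 18.8 to 29.97%) and chromosome 15 (24.03%, 19.2 to 29.4%) lay wholly above it. Megabases crowded with at least 40 MYF5 peaks held 40 of the 2083 (1.92%, background 2.13%). The megabase of chromosome 12 from 48000001 had the most, with 19 of its 73 MYF5 peaks. Those 19 had a low median fold of 5.15 but 72.0 tags, over a background of 7.79 times the lowest. Raised background, 4 times the lowest or more, was found under 82 of the 2083 peaks (3.94%), against 4.91% of all MYF5 peaks.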

How the data were processed

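ChIP-seq peak lists of 3 libraries were used, 1 list per library. The genome build hg19 and the tools BWA 0.7.10 and MACS2 2.1.0 come from the submitters' processing notes, which give them no role or order. Coordinates are hg19, written 1-based. In the lists deposited by the authors, each peak has a fold (a ratio over local background), a −log10 p-value and −log10 q-value, a summit position and a score; the score deposited by the authors was not used. A summit was inside a region when its base was, and its distance was counted to the region's outermost base. Regions were shared at 1 bp of overlap.

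Tags at each summit were recovered from the deposited fold and −log10 p-value with the formulas of MACS2, in which the p-value is a Poisson tail. Solutions below the most common background of a list were dropped, and the solution nearest to a whole tag was kept. Tags came out whole within 0.1 tag at 100% of the peaks of each list. More than 1 solution existed for 18.5% of MYF5, 7.60% of RH18 and 45.3% of RD peaks. A tag was worth 0.658, 0.832 and 0.273 pileup units in these lists, so folds were compared within a list only. MYF5 summits rested on a median of 42.0 tags (19 to 339), RH18 regions on 57.0 and RD regions on 85.0. For total reads, no value was given in the sources used here.

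Shares carry exact Clopper-Pearson and densities exact Poisson 95% intervals; tags were not shown to be independent molecules, so these cover counting error only. No test was made, since each group was 1 library. Interval steps were tested on simulated data and returned 100% of 598 known places.

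Named peaks were the 12 of highest fold, the 10 of most tags in gaps of both lines, the 5 of highest fold beside each line alone, and the 5 nearest to the 500 bp limit on each side. The members and lists were chosen with earlier results of these data known. Planned steps on E-box sequence and gene position need hg19 sequence or annotation, which was not used here. Computation used scipy 1.17.1, numpy 2.4.6 and pandas 2.3.3 under Python 3.11.15, with plots by matplotlib 3.10.9.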

Additional observations from a re-analysis of the deposited data

How the results depend on the processing

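Of 36 alternatives, 15 left the value within its interval and 21 moved it. The share of MYF5 peaks just beside regions (18.7%) was 14.97% with edges within 250 bp, 21.1% within 1000 bp, 17.7% for regions with a −log10 q of at least 10, 24.6% among the 5000 MYF5 peaks of largest −log10 p, 7.76% when any overlap counted as inside, 10.3% with regions joined within 1000 bp, 16.9% for edges of RH18 alone and 23.0% for edges of RD alone. Flanks on both sides (37.8%) came to 28.7% within 250 bp, 43.5% within 1000 bp, 33.5% at the stricter q and 40.1% among the 5000 peaks. The median distance was 84.0 bp within 250 bp and 129 bp within 1000 bp, and gaps had medians of 211 and 424 bp in RH18 and of 229 and 354 bp in RD. These follow the limit by construction. Shared RH18 flanks fell to 35.2% at the stricter q and 30.8% with reciprocal overlap of 50%, and shared RD flanks to 33.1% with the latter. The share in the top decile of MYF5 height stayed between 17.1 and 18.4% over its 9 alternatives. Height was not computed again with any overlap counted as inside or with regions joined within 1000 bp, which left far fewer peaks in the set. Alternatives on low background, single lists, gap widths within 250 bp and cluster megabases were chosen after seeing the data. Alternatives on E-box windows and gene starts, which need hg19 sequence or annotation, were not run. No paired analysis was possible because each group held 1 library and no test was made. With a median of 42.0 tags at a MYF5 summit and library depth unknown, a summit or region that is not listed is not shown to be absent.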

Other observations

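Short gaps between neighbouring H3K27ac regions were also counted from the side of the acetylation lists. RD had 15197 gaps of 1 to 500 bp, of which 1064 (7.001%, 6.60 to 7.42%) held a MYF5 summit of RH18. RH18 had 12443 such gaps, of which 421 (3.38%, 3.07 to 3.72%) did. Per megabase, RD gaps of 101 to 200 bp held 429 summits (386 to 475), above the 210 (204 to 216) inside RD regions. RH18 gaps of that width held 154 (127 to 186), below the 189 (184 to 194) inside RH18 regions. In wider gaps the RD density fell to 188 per megabase at 401 to 500 bp and 112 at 501 to 1000 bp, and the RH18 density to 132 and 94.7. Of the 372 summits in RD gaps of 101 to 200 bp, 100 are among the peaks described above, and the others lay inside RH18 regions. RD regions were narrower than RH18 regions (median 358 against 474 bp), and the part of that in these counts was not tested.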
